A study of Mus musculus with 8 samples.

Results

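The Hox genes of the 4 mouse clusters were followed in cells descended from hypertrophic chondrocytes of the proximal tibia. The members are every gene of the table whose symbol is Hoxa, Hoxb, Hoxc or Hoxd followed by a number, 39 of 48490 genes. The 8 libraries came from mice at postnatal day 5, and each was made from 70 hand-picked tdTomato-positive cells amplified with Smart-seq2. The WT group (2 libraries) carried Col10a1Cre and Rosa26-Tdtomato alone, that is, Cre recombinase under a gene of hypertrophic chondrocytes and a red reporter. The LoF group (4 libraries) carried these together with Ctnnb1delta/delta, a loss of β-catenin, which carries canonical Wnt signals to the nucleus. The GoF group (2 libraries) carried them with 1 allele of Ctnnb1-exon3 delta, which removes the part of β-catenin that marks it for degradation. All 3 groups therefore share the Cre and the reporter, and a cell was picked only if it, or a cell it came from, had expressed Cre. The title of the study asks whether β-catenin steers hypertrophic chondrocytes between fat and bone, and the Hox genes were not its stated subject. Whether libraries of a group came from different mice is not given in the labels, and the spread that enters each p-value is that between libraries, possibly technical.

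Hox genes encode homeodomain transcription factors that lie in 4 clusters, HoxA to HoxD, and are numbered by paralogue group from the 3' to the 5' end of a cluster. The order along the cluster follows the order of expression along the body, and the 5' genes are also used along the limb. Groups 9 and 10 are best known for the upper limb segment, group 11 for the middle segment that holds the tibia, and group 13 for the hand and foot. Connective tissue and skeletal cells keep such a pattern after development, where it serves as a record of position.

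The sequences before the starts of Hoxa10, Hoxa9 and Hoxa11, the posterior HoxA genes above 0 in every library, are shown first, with that of Hoxd11, the group 11 gene of HoxD, which was listed at 0 in every library. Each is the 250 bases before a RefSeq gene start (GRCm38.p6), read 5' to 3' on the strand of the gene. The first 3 lie on the minus strand of chromosome 6 and Hoxd11 on the plus strand of chromosome 2. Capitals mark CTTTGA or CTTTGT, searched on both strands, the core of the site bound by the TCF/LEF partners of β-catenin. RefSeq gives Hoxa10 a pair of starts, and both windows are printed because they differ in this motif.
Hoxa10, upstream start, chr6:52240855-52241104: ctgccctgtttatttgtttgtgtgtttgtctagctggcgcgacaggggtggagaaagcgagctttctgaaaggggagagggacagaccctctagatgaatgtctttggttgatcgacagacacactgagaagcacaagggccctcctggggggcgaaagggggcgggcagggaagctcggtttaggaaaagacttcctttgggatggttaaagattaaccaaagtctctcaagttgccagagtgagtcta
Hoxa10, downstream start, chr6:52234940-52235189: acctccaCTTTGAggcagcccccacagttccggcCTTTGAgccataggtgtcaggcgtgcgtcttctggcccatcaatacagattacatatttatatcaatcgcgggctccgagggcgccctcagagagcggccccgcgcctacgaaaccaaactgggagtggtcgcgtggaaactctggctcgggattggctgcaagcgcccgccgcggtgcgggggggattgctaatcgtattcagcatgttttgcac
Hoxa9, chr6:52227371-52227620: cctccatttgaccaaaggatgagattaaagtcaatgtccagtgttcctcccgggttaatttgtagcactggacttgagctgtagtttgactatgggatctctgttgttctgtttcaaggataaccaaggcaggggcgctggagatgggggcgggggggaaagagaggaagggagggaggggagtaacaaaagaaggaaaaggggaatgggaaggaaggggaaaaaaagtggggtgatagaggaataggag
Hoxa11, chr6:52245811-52246060: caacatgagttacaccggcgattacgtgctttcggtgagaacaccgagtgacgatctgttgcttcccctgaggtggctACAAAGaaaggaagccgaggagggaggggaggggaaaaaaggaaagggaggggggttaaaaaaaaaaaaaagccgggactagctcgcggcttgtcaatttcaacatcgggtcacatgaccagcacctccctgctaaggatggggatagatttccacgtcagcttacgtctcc
Hoxd11, downstream start, chr2:74682073-74682322: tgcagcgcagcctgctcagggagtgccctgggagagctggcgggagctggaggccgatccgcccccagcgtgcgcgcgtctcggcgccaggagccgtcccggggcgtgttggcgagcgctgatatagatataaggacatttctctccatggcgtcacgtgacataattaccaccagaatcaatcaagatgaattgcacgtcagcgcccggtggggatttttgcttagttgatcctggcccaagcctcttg
The motif occurs 2 times before the downstream start of Hoxa10, 1 time before Hoxa11, and not before Hoxa9, the upstream start of Hoxa10 or the downstream start of Hoxd11. The window before the upstream start of Hoxd11, not printed, held it 1 time. The RefSeq table held 24 windows of 22 members, of which 8 contained the motif, against 27.6% of 32851 windows over all genes. GC content of the 24 windows ran from 40.4% to 80.0%. A match to these letters is a description of the sequence and says nothing of binding. The window of Hoxb9, the member with the widest difference between groups, was not analysed here.

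The clusters also hold microRNA genes of the miR-196 family, which lie beside the group 9 genes and are known to act on Hox messages. The mature sequences are given as landmarks, with the seed, bases 2 to 8, in capitals (RefSeq, GRCm38.p6). The first lies between Hoxb13 and Hoxb9 on chromosome 11 (96265187 to 96265208) and again in HoxC, and the second within Hoxa9 on chromosome 6 (52230129 to 52230150).
mmu-miR-196a-5p: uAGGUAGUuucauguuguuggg
mmu-miR-196b-5p: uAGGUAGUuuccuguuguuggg
Both have the same seed. The hairpins of Mir196a-1, Mir196a-2 and Mir196b were listed at 0 in all 8 libraries, which for so short a transcript says nothing of the mature microRNA.

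All values below are FPKM, which divides fragments by library size and by the length of the transcript, so levels can be set side by side between genes. Of the 39 members, 13 reached an FPKM of 1 in at least 2 of 8 libraries and were tested, 10 were above 0 in some library without reaching this filter, and 16 were listed at 0 in all 8. HoxA had 11 of 11 members above 0 in some library and 6 tested. Of these 11, Hoxa6 and Hoxa13 rested on an estimated 2.0 and 1.0 fragments over all 8 libraries. HoxC had 7 of 9 members above 0 and 5 tested, HoxB had 4 of 10 above 0 and 2 tested, and HoxD had 1 of 9 above 0 and none tested. By paralogue group, 6 of 10 members of groups 9 to 11 were tested, against 5 of 15 in groups 4 to 8, 2 of 8 in groups 1 to 3 and 0 of 6 in groups 12 and 13.

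**Figure D1:**
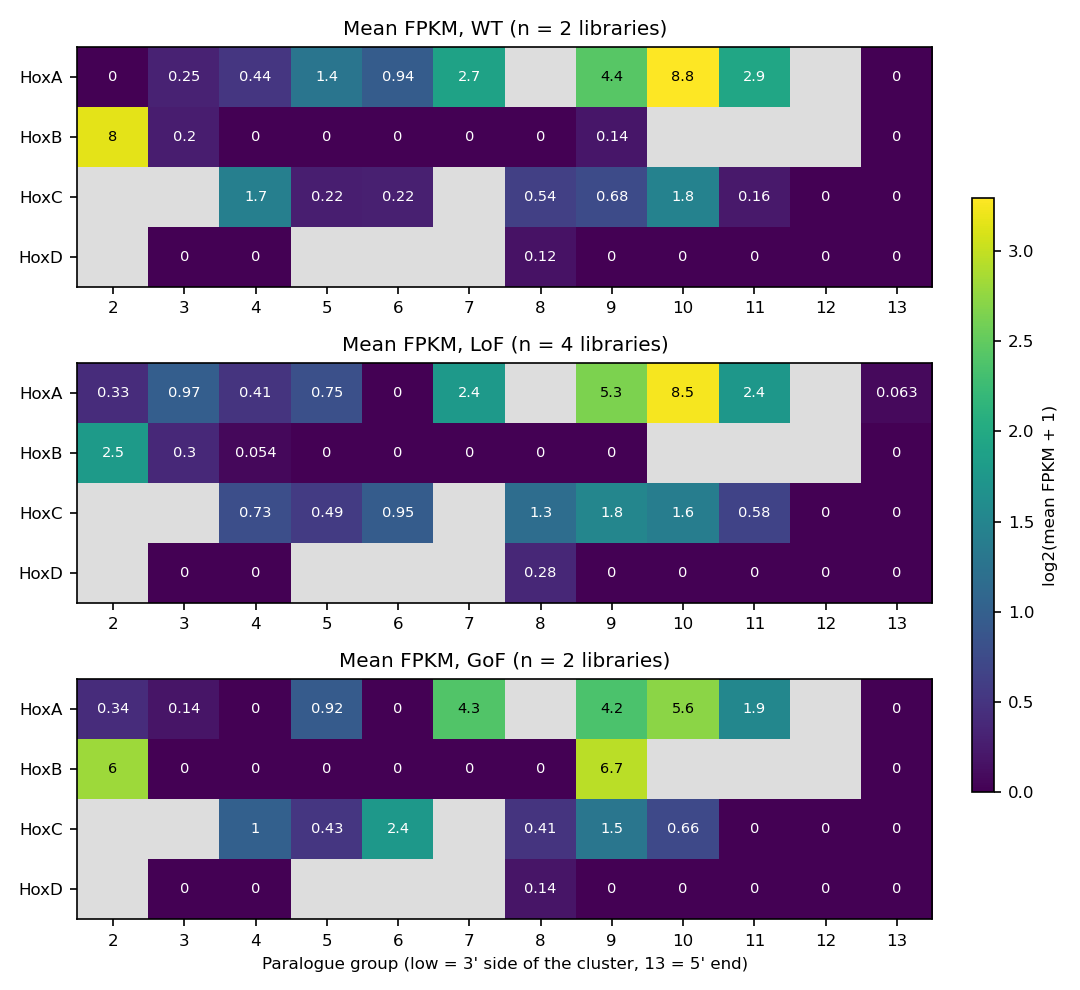
Mean FPKM of the Hox genes of groups 2 to 13 in WT (n = 2), LoF (n = 4) and GoF (n = 2) libraries, arranged by cluster (rows) and paralogue group (columns). Colour gives log2(mean FPKM + 1), the printed number is the mean FPKM, and grey marks positions with no gene. HoxA groups 7 to 11 and Hoxb2 are bright in all 3 panels, HoxD is dark throughout, and Hoxb9 is bright in GoF.

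Depth limits what these low values show. The spacing of low FPKM values put the libraries at an estimated 1589121 to 2031891 fragments, and all Hox genes together rested on an estimated 99.9 to 184.5 fragments per library. A transcript of 2000 bases with 3 fragments has an FPKM of 0.86 to 1.12, so values near 1 are a few fragments. These limits cover counting error only, since amplified fragments are not independent molecules. Summed Hox FPKM was 45.6 and 25.9 in WT, 26.5, 26.2, 34.6 and 42.7 in LoF, and 42.2 and 31.9 in GoF, so the 3 groups overlapped. In pools of cells, fewer cells of a type and less RNA per cell cannot be told apart.

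The posterior HoxA genes Hoxa9, Hoxa10 and Hoxa11 were above 1 FPKM in all 8 libraries. Together they held 46.1% and 43.2% of the summed Hox FPKM in WT, 43.9% to 52.3% in LoF, and 26.4% and 38.0% in GoF. Hoxa10 (ENSMUSG00000000938.11, chromosome 6, 52231197 to 52240854, mm10) had an FPKM of 12.2 and 5.46 in WT, 6.22, 7.25, 9.88 and 10.7 in LoF, and 5.42 and 5.79 in GoF. It was the highest Hox gene in 7 of 8 libraries, GoF library 1 being the exception, and its median of 6.74 lay at percentile 62.3 of the medians of all tested genes. Its values rested on an estimated 19.4 to 48.4 fragments.

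Hoxa9 (chromosome 6, 52223100 to 52231089), its neighbour on the 3' side, had an FPKM of 5.70 and 3.16 in WT, 3.64, 4.02, 5.71 and 7.71 in LoF, and 3.50 and 4.83 in GoF. Hoxa11 (chromosome 6, 52242106 to 52245810), the group 11 gene of the cluster, had an FPKM of 3.16 and 2.56 in WT, 1.77, 2.44, 1.61 and 3.60 in LoF, and 2.24 and 1.504 in GoF. The 3 genes kept 1 order inside each library: Hoxa10 was above Hoxa9, and Hoxa9 above Hoxa11, in 8 of 8. Hoxa13, the group 13 gene at the 5' end, was listed at 0 in 7 libraries and at 0.254 in LoF library 1. HoxA therefore ended, at this depth, between Hoxa11 and Hoxa13, which lie 11.9 kb apart. Hoxa11os, an antisense transcript that shares exon sequence with Hoxa11, had an FPKM between 0.324 and 15.7, and the library method does not mark strand, so fragments of this pair cannot be told apart.

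Hoxa7, the next gene on the 3' side of Hoxa9, was also above 1 in all 8 libraries, with an FPKM of 4.13 and 1.32 in WT, 1.99, 1.27, 3.38 and 2.98 in LoF, and 5.34 and 3.21 in GoF. It was above Hoxa11 in 5 of 8 libraries, so these neighbours in the ranking could not be ordered. The antisense transcript Hoxaas3 shares exon sequence with Hoxa7 and had its highest FPKM, 8.81, in LoF library 2. Without strand, fragments of Hoxa7 and Hoxaas3 cannot be told apart. Further 3', the values were patchy. Hoxa5 had an FPKM of 2.88 and 0 in WT, 0.335, 0.619, 0 and 2.04 in LoF, and 1.21 and 0.631 in GoF. Hoxa2, Hoxa3, Hoxa4 and Hoxa6 did not reach the filter, with highest values of 1.32, 1.78, 1.65 and 1.88, each in a single library.

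HoxC was lower than HoxA in groups 9 and 10. Hoxc10 had an FPKM of 2.47 and 1.05 in WT, 1.32, 2.12, 1.79 and 1.34 in LoF, and 0.396 and 0.928 in GoF. Hoxc9 had an FPKM of 0.548 and 0.818 in WT, 2.56, 1.89, 1.12 and 1.83 in LoF, and 1.22 and 1.68 in GoF. In every library Hoxa10 was above Hoxc10 and Hoxa9 above Hoxc9. Hoxc10 and Hoxc5 share exon sequence on the same strand in GENCODE, so their split is uncertain.

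The anterior HoxC genes were irregular, and some lay above Hoxc9 or Hoxc10 in libraries of each group. Hoxc4 was above 0 in all 8 libraries, with an FPKM of 1.35 and 2.01 in WT, 0.315, 0.580, 1.72 and 0.320 in LoF, and 1.13 and 0.888 in GoF. Hoxc6 had its highest value, 3.99, in GoF library 1, against 0.777 in GoF library 2, 0.442 and 0 in WT, and 0 to 1.78 in LoF. Hoxc8 ran from 0 to 2.94, with the top value in LoF library 3. Hoxc5 reached 1.56 and Hoxc11 2.02, each in a single LoF library, and Hoxc12 and Hoxc13 were listed at 0 throughout.

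HoxD, whose 5' genes pattern limb segments together with HoxA, was nearly silent. Hoxd1, Hoxd3, Hoxd4, Hoxd9, Hoxd10, Hoxd11, Hoxd12 and Hoxd13 were listed at 0 in all 8 libraries, and Hoxd8 was above 0 in 3, with 1.14 as the highest. For Hoxd11 a count of 0 over all 8 libraries allows a mean FPKM of up to 0.067, so its mean lay well below that of Hoxa11. This limit takes a listed 0 as an absence of fragments. Hoxd10 and Hoxd11 share exon sequence on the same strand with Gm28309, also listed at 0 in all 8 libraries, and Hoxd3 shares it with Hoxd4. How fragments of shared exons were assigned is not given. Over the 16 members listed at 0 everywhere this limit, set by 3 fragments, ran from 0.067 for Hoxd11 to 0.275 for Hoxc12.

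**Figure D2:**
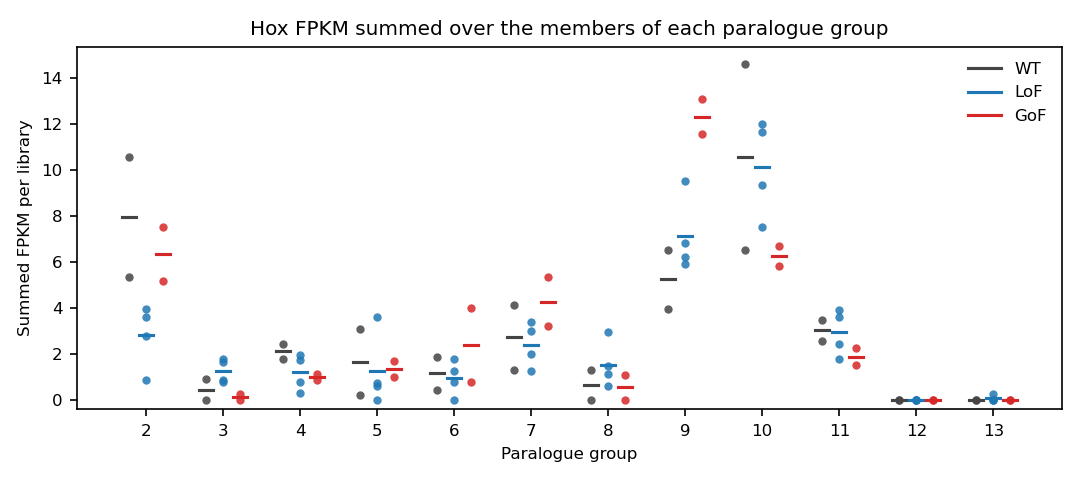
FPKM summed over the members of each paralogue group from 2 to 13, with 1 point per library and a bar at the mean of WT (n = 2), LoF (n = 4) and GoF (n = 2). Groups 9 and 10 hold the highest means in LoF, and groups 2, 9 and 10 in WT and GoF, groups 12 and 13 are at or near 0, and group 9 is highest in GoF, at 11.6 and 13.1.

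Groups 9 to 13 took a large share of the summed Hox FPKM in each library: 54.1% and 50.4% in WT, 59.5%, 67.6%, 64.0% and 59.7% in LoF, and 50.1% and 62.1% in GoF. The LoF libraries all lay above both WT libraries. The sum that each share is taken of includes Hoxb2, which was lower in LoF (0.861 to 3.97) than in WT (5.33 and 10.6). A lower Hoxb2 raises the share without any rise in groups 9 to 13, and the share without Hoxb2 was not examined. Without Hoxb9 the share in GoF was 37.8% and 55.0%. These shares are a description, with no test.

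Hoxb2 (ENSMUSG00000075588.6, chromosome 11, 96350525 to 96354012), best known from hindbrain segmentation, had the highest median among the anterior genes of groups 1 to 3, at 4.23. Its FPKM was 10.6 and 5.33 in WT, 3.97, 1.47, 0.861 and 3.62 in LoF, and 7.55 and 4.50 in GoF. All 4 LoF libraries lay below both WT and both GoF libraries. The difference between LoF and WT was -1.42 on the scale of log2(FPKM + 1) (SE 0.55) and did not pass the test (limma, Benjamini-Hochberg adjusted p = 0.292). That between GoF and LoF was 1.10 (SE 0.55, limma, adjusted p = 0.255). The antisense transcript Hoxb3os shares exon sequence with Hoxb2 and had an FPKM of 11.3 and 4.11 in WT, 2.14, 3.91, 0 and 4.25 in LoF, and 6.58 and 1.51 in GoF. Without strand, fragments of Hoxb2 and Hoxb3os cannot be told apart.

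Hoxb9 (ENSMUSG00000020875.9, chromosome 11, 96271457 to 96276595), a group 9 gene that HoxB carries at the 5' end of its main block, was the only member called different in any comparison. Its FPKM was 8.39 and 5.06 in GoF, 0.289 and 0 in WT, and 0 in all 4 LoF libraries. In estimated fragments this was 30.1 and 23.1 in GoF, 1.2 in WT library 1, and 0 in the other 5. Hoxb9 was higher in GoF than in WT by 2.73 on the log2(FPKM + 1) scale (SE 0.46, limma, adjusted p = 0.0140), and higher in GoF than in LoF (limma, adjusted p = 0.00137), where no fold is given because all 4 LoF libraries were listed at 0. It reached the filter through the GoF libraries alone, so it had to differ once it was tested.

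The call against WT depended on the libraries in the fit. With the groups GoF and WT fitted alone, so that the 4 LoF libraries at 0 no longer entered the spread, the adjusted p in limma was 0.121. It was 0.0796 without WT library 1 and 0.110 without WT library 2, and 8 of 23 alternatives lost this call, none turning its direction. When a GoF library was left out and the filter was applied again, Hoxb9 was no longer tested.

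**Figure D3:**
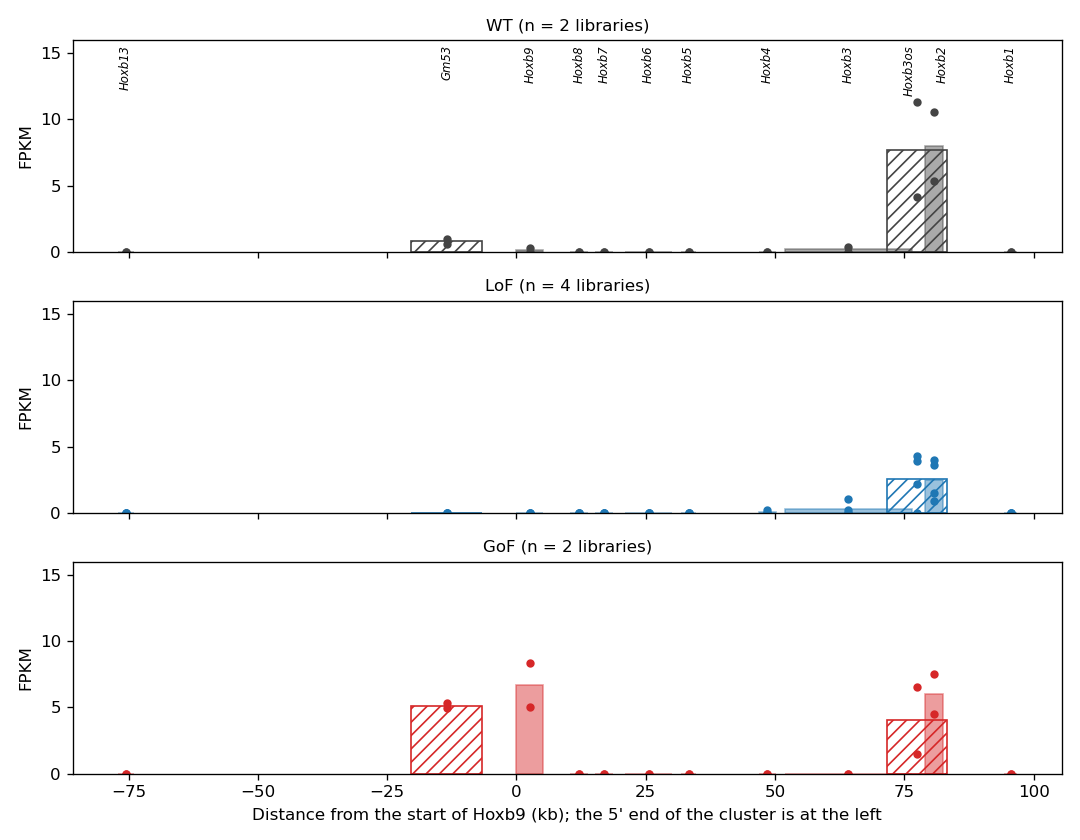
FPKM along HoxB in WT (n = 2), LoF (n = 4) and GoF (n = 2) libraries, by distance from the start of Hoxb9 in kb. Each bar spans a gene and ends at the group mean, points are libraries, filled bars are Hox genes and hatched bars the non-coding transcripts Gm53 and Hoxb3os. Signal stands at Gm53 and Hoxb9 in GoF and at Hoxb2 and Hoxb3os in all 3 groups, with nearly nothing between.

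The Hoxb9 signal had 1 partner among the tested transcripts of the cluster and no Hox neighbour. Gm11539, between Hoxb13 and Gm53, did not reach the filter. Its FPKM was 2.60 in GoF library 1, 0.970 in WT library 2 and 0 elsewhere, GoF library 2 included. Hoxb8, 5.3 kb to the 3' side, was listed at 0 in all 8 libraries, as were Hoxb7, Hoxb6, Hoxb5 and Hoxb1, and Hoxb13, 74.0 kb to the 5' side. Hoxb4 reached 0.216 and Hoxb3 1.02, each in LoF library 2, and both were at 0 in GoF. Gm53 (ENSMUSG00000078706.4, chromosome 11, 96251105 to 96264868), a long non-coding RNA on the same strand that ends 6.6 kb before Hoxb9, was chosen after its values were seen. Its FPKM was 5.32 and 4.93 in GoF, 0.963 and 0.633 in WT, and 0 in all 4 LoF libraries, so the 3 groups did not overlap, and it too reached the filter through GoF alone. Gm53 was higher in GoF than in LoF (limma, adjusted p = 0.00212). Its difference from WT, 1.77 (SE 0.44), did not pass (limma, adjusted p = 0.0722, from 0.0425 to 0.290 over the alternatives). Whether Gm53 and Hoxb9 fragments belong to separate transcripts cannot be seen from gene-level values.

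Other features of the libraries moved with the Hoxb9 values. Both GoF libraries held Y-linked transcripts and no Xist, while both WT libraries held Xist and no Y-linked transcripts, so sex and genotype cannot be told apart between GoF and WT. LoF libraries 2 and 3 held Y-linked transcripts and LoF libraries 1 and 4 held Xist, and Hoxb9 was listed at 0 in all 4. The LoF libraries differ from GoF in genotype as well, and the part of sex in the Hoxb9 values was not tested. Summed osteoblast markers (5 genes) were 14570 to 16080 FPKM in GoF, 10740 to 11050 in WT and 718.7 to 1727 in LoF. Between GoF and WT this order held for Ibsp, Sp7 and Alpl, while Col1a1 (6090 and 4626 in GoF, 5470 and 6681 in WT) and Bglap overlapped. Summed hypertrophic chondrocyte markers (5 genes) were 683.3 to 705.9 in GoF, 265.9 to 266.1 in WT and 100.1 to 190.1 in LoF. Their members differed in order: Ihh was above 0 in GoF alone, at 1.46 and 3.91, Pth1r was lower in both GoF libraries (25.05 and 32.2) than in both WT libraries (45.2 and 49.5), and Col10a1 overlapped between WT and LoF. Chondrocyte markers (4 genes) summed to 55.17 to 100.8 in GoF, 11.81 to 12.44 in WT and 9.104 to 60.03 in LoF. Col2a1 (90.3 and 48.8 in GoF) made up most of the GoF sum. Col2a1 and Acan lay higher in both GoF libraries than in both WT libraries, while Sox9 and Matn3 overlapped between these groups. Acan in GoF (8.74 and 4.79) lay within its range in LoF (1.16 to 17.8). Osteoclast markers (4 genes, Ocstamp and Calcr at 0 in every library) summed to 95.38 to 98.81 in GoF, 63.83 to 72.38 in WT and 58.07 to 73.02 in LoF. Adipocyte markers (4 genes) summed to 0.809 to 4.44 in GoF, 17.99 to 113.9 in WT and 494.4 to 765.8 in LoF. Of these, Adipoq and Fabp4 overlapped between GoF and WT. Marrow stromal markers (4 genes) summed to 39.65 to 60.04 in GoF, 92.75 to 330.8 in WT and 555.8 to 1699 in LoF. Among them Lepr overlapped between GoF and WT and lay higher in GoF (38.1 and 56.9) than in LoF (at most 32.6). Blood markers (7 genes) summed to 218.5 to 562.1 in GoF and 1594 to 6243 in WT. The part of these markers in the Hoxb9 result was not tested. In GoF the 6 endothelial markers summed to at most 1.19, the 5 muscle and tendon markers to at most 3.08 with Myod1, Pax7, Ckm and Tnmd at 0, and the 3 nerve and glia markers to at most 0.656 with Sox10 at 0.

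The effect of stabilised β-catenin is addressed by GoF against WT. Among the 13 tested members, 1 was called, Hoxb9, against 2.31% of the 12888 genes tested. The libraries of the groups did not overlap for 6 members, against 48.0% of all tested genes: Hoxb9, Hoxc9 and Hoxc6 lay higher in GoF and Hoxa11, Hoxc10 and Hoxc4 lower. The member with the second widest difference, Hoxc6, stood at 1.31 (SE 0.66, limma, adjusted p = 0.413), set largely by GoF library 1. The median difference of the tested members was -0.05, beside -0.08 over all tested genes.

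The effect of deleting Ctnnb1 is addressed by LoF against WT. Of the 13 tested members 0 were called by limma, against 1.23% of all tested genes. Among the members 1, Hoxb2, had an unadjusted p under 0.05 in limma, against 1725 of all 12888 tested genes. The groups did not overlap for 2 members, Hoxc9, higher in LoF by 0.74 (SE 0.43, limma, adjusted p = 0.520), and Hoxb2, lower, against 21.4% of all tested genes. The median difference was -0.03 for the members and 0.06 for all tested genes. The estimated differences of the posterior HoxA genes were smaller than their standard errors: 0.02 for Hoxa10 (SE 0.43), 0.20 for Hoxa9 (SE 0.46) and -0.23 for Hoxa11 (SE 0.46). Errors of this size do not show that these genes stayed the same.

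GoF against LoF is the widest contrast of the design. It called 1 of 13 members, Hoxb9, against 11.6% of all tested genes, and the groups did not overlap for 4 members, against 33.5%: Hoxb9 and Hoxb2 were higher in GoF, and Hoxa10 and Hoxc10 lower. Hoxa10 differed by -0.50 (SE 0.43, limma, adjusted p = 0.516) and Hoxc10 by -0.68 (SE 0.45, limma, adjusted p = 0.394). The median was -0.18 for the members and -0.17 for all tested genes. This general shift moved to -0.05 under median ratio scaling and to -0.03 under quantile normalization, so small negative values of uncalled members cannot be told apart from the scaling. The 3 comparisons share libraries and are not independent of each other. Standard errors of the 12 uncalled members ran from 0.43 to 0.72, so a missed call does not show that a gene did not change.

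**Figure D4:**
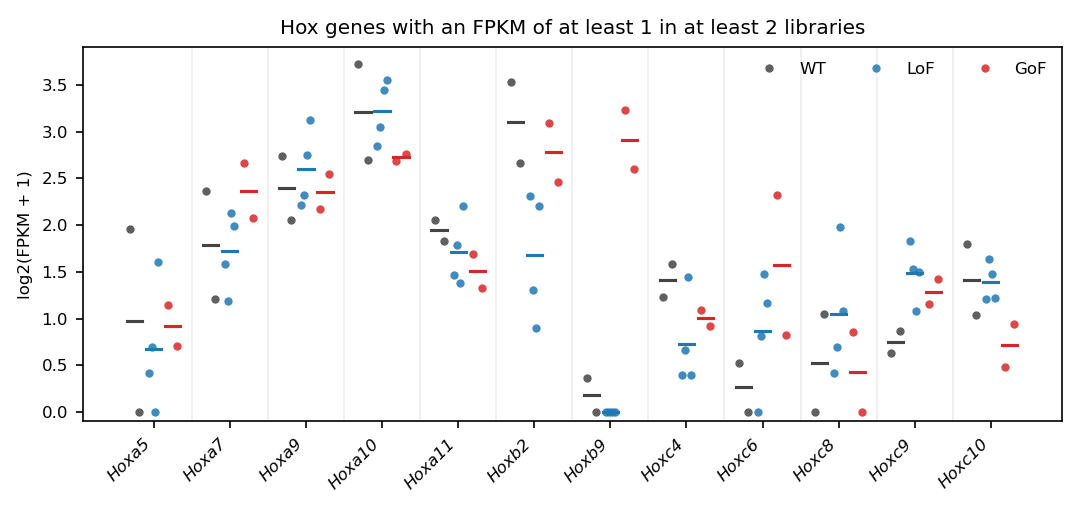
Levels of 12 tested Hox genes as log2(FPKM + 1), with 1 point per library and a bar at the mean of WT (n = 2), LoF (n = 4) and GoF (n = 2). Hoxb9 separates the GoF libraries from all others, Hoxb2 is lowest in LoF, and the posterior HoxA genes overlap between groups or lie close to each other.

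Hox proteins bind DNA together with partners of the TALE class, encoded by the Pbx, Meis and Pknox genes. Of 9 such genes 7 were tested. In GoF against WT 0 rose and 1 fell (2.31% of all tested genes were called). In LoF against WT 0 were called (1.23% of all). There 2 had an unadjusted p under 0.05 in limma, beside 1725 of all 12888 tested genes. In GoF against LoF 0 rose and 2 fell (11.6% of all). Meis3 had an FPKM of 26.2 and 15.3 in WT, 13.3 to 30.6 in LoF, and 2.23 and 1.25 in GoF. It was lower in GoF than in WT by -2.97 (SE 0.51, limma, adjusted p = 0.0162) and than in LoF by -2.76 (SE 0.44, limma, adjusted p = 0.00355). The call against WT was lost in 10 of 25 alternatives, among them leaving out any 1 GoF or WT library (limma, adjusted p up to 0.185), and the call against LoF in 1, without GoF library 2 (limma, adjusted p = 0.0648). Pknox2 was at 0 in both GoF libraries, at 0 and 0.368 in WT, and between 1.18 and 2.11 in LoF. Its call in GoF against LoF (limma, adjusted p = 0.0466) was lost in 20 of 25 alternatives. Pknox2 reached the filter through the LoF libraries alone, so this call is no independent support for a difference.

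Meis1 was tested and not called. Meis1 had an FPKM of 0 and 0.842 in GoF, 2.03 and 2.84 in WT, and 1.43 to 10.7 in LoF. Meis2 did not reach the filter and was above 0 only in LoF library 2, at 1.36, and GoF library 2, at 0.922.

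Of 23 transcription factors of limb identity and limb patterning 13 were tested. In GoF against WT 1 rose and 1 fell (2.31% of all tested genes were called). In LoF against WT 0 were called (1.23% of all). There 2 had an unadjusted p under 0.05 in limma, beside 1725 of all 12888 tested genes. In GoF against LoF 1 rose and 2 fell (11.6% of all). Pitx1, which marks the hindlimb, was above 0 in all 8 libraries at 0.271 to 1.44, a few fragments each. Tbx4, the other hindlimb gene, and Tbx5, its forelimb counterpart, were listed at 0 in all 8. Prrx1, a gene of limb mesenchyme, had an FPKM of 9.61 to 19.8 over all libraries and was not called in any comparison.

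Shox2, which acts in limb long bones, had an FPKM of 11.2 and 7.67 in WT, 4.08, 7.09, 6.73 and 9.55 in LoF, and 0.793 and 1.90 in GoF. It was lower in GoF than in LoF by -1.74 (SE 0.46, limma, adjusted p = 0.0371), which 19 of 25 alternatives did not keep (highest adjusted p 0.333), and its difference from WT did not pass (-2.17, SE 0.53, limma, adjusted p = 0.0702). The homeobox genes Msx1 and Msx2 moved in opposite directions. Msx2, which reached the filter through GoF alone, had an FPKM of 12.7 and 17.5 there and was listed at 0 in the other 6 libraries (limma, adjusted p = 0.00279 against WT and 0.000248 against LoF). Msx2 therefore had to differ once it was tested, and its calls are no independent support for a difference. Of 23 alternatives 2 lost the Msx2 call against WT, the fit of GoF and WT alone and the replicate block (limma, highest adjusted p 0.109). When a GoF library was left out and the filter was applied again, Msx2 was no longer tested. Msx1 had an FPKM of 1.56 and 0.609 in GoF, 7.64 and 8.27 in WT, and 14.6 to 20.1 in LoF. It was lower in GoF than in LoF by -3.14 (SE 0.38, limma, adjusted p = 0.000713, up to 0.0241 over 25 alternatives) and than in WT by -2.14 (SE 0.44, limma, adjusted p = 0.0340), a call lost in 17 of 25 alternatives (highest adjusted p 0.233), among them leaving out any 1 GoF or WT library.

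**Figure D5:**
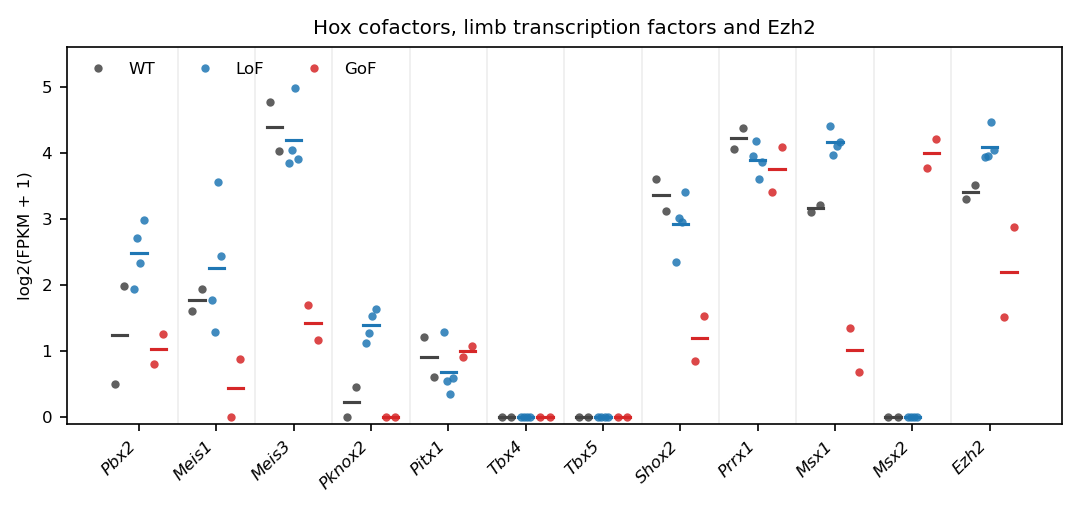
Levels of Hox cofactors, limb transcription factors and Ezh2 as log2(FPKM + 1), with 1 point per library and a bar at the mean of WT (n = 2), LoF (n = 4) and GoF (n = 2). Meis3, Shox2 and Msx1 are lowest in both GoF libraries, Msx2 is above 0 in GoF alone, and Tbx4 and Tbx5 are at 0 in every library.

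Polycomb proteins keep Hox clusters silent and Trithorax proteins keep them active. Of 25 such genes 22 were tested. In GoF against WT 0 were called, against 2.31% of all tested genes (limma, 1 with an unadjusted p under 0.05). In LoF against WT 0 were called, against 1.23% of all (limma, 0 with an unadjusted p under 0.05). In GoF against LoF 1 fell, where 11.6% of all tested genes were called. That gene was Ezh2, the methyltransferase subunit of Polycomb repressive complex 2, with an FPKM of 1.86 and 6.36 in GoF, at least 14.3 in all 4 LoF libraries, and 8.87 and 10.5 in WT. The difference of -1.90 (SE 0.44, limma, adjusted p = 0.0206) lost its call in 5 of 25 alternatives, among them without GoF library 1 (adjusted p up to 0.286). Of 17 neighbouring and antisense transcripts 9 were tested and 0 were called in any comparison (limma, 1 with an unadjusted p under 0.05 in each). Hotair of HoxC and Hottip of HoxA were listed at 0 in all 8 libraries. Of 9 upstream factors of the Hox code 4 were tested and 0 were called in any comparison (limma, with 0, 0 and 2 at an unadjusted p under 0.05 in the order above). In the same order, 2.31%, 1.23% and 11.6% of all tested genes were called, so 0 calls in lists this short says little of their members. In that order, 1849, 1725 and 3253 of all 12888 tested genes had an unadjusted p under 0.05 in limma.

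Over the whole series, 12604 to 13962 genes were above 0 per library. Ctnnb1, the targeted gene, had an FPKM of 137 and 146 in WT, 81.0, 67.3, 70.4 and 81.1 in LoF, and 72.0 and 86.7 in GoF, so all mutant libraries lay below WT, and neither difference passed (limma, adjusted p = 0.110 for LoF and 0.176 for GoF). The table gives no exon-level values, which would be needed to see the deletions. Col10a1, the gene that drives the Cre, was above 0 in all 8 libraries, at 6.24 to 190 FPKM. Blood markers, mostly globin, summed to 48.82 to 1393 FPKM in LoF, and the 6 endothelial markers to 57.13 in LoF library 3.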

How the data were processed

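RNA of 8 pools of 70 cells was amplified with Smart-seq2, per the labels' protocols. The authors deposited 1 table of FPKM per gene and library, and the submitters' processing notes list mm10 as the build and, without role or order, Cufflinks, HTSeq, HISAT2 and SAMtools 0.1.18. The annotation release is not given in the sources used here. GENCODE M21 held 99.3% of the gene IDs and served for strand and exon overlap. Of 48555 lines 65 were repeats with identical values, which left 48490 genes.

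The members and the gene lists were chosen with earlier results of these data known. A model of group means over all 8 libraries was fitted in limma 3.58.1 (R 4.3.3), with the spread moderated along a trend on the mean, and tested two-sided on log2(FPKM + 1), a scale that understates changes of low genes. The fit used the 12888 genes that reached 1 FPKM in 2 or more libraries, and a gene was called at a Benjamini-Hochberg adjusted p under 0.05 over all of them. The code was tested on simulated data.

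Estimated fragments came from the spacing of low FPKM values of single-transcript genes (1500 to 4000 bases), of which 92.1% to 95.2% per library fell within 0.1 of a whole fragment. They serve as a description and entered no test.

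Members above the filter are named with their values, as are fixed genes and, from each list, up to 4 members called in a comparison, except that 1 member and 1 fixed gene are not reported here. Alternatives were quantile normalization, median ratio scaling, a pseudocount of 0.1, no filter, a fit of only the groups compared, a fit without the trend, a replicate block and leaving out each library. Leaving out LoF libraries 2 and 3 was added after seeing the data. Libraries were left out in both of 2 ways, keeping the 12888 genes or applying the filter again, and the first was chosen to lead after the results of both had been seen.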

Additional observations from a re-analysis of the deposited data

Results flagged for a closer look

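In the 4 LoF libraries, 1 library stood apart from the other 3 for 8 of the 29 Hox and fixed genes above 0 there (Dixon's test). Chance marks about 1 in 20 groups of normally distributed values, a rate that does not hold for genes with several values at 0. For 6 of the 8 genes the other 3 libraries were at 0, a pattern that the test always marks. A few fragments in 1 library then set the result: Hoxb4 at 0.216 in library 2, Hoxd8 at 1.14 and Hoxa13 at 0.254 in library 1, Hoxa2 at 1.32 and Meis2 at 1.36 in library 2, and Hoxa4 at 1.65 in library 4. Library 3 held the highest Hoxc11, 2.02 against 0.313 in the next, and the highest Hoxa3, 1.78 against 0.775. None of the 8 genes was called in a comparison, and of the 8 none reached the filter.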

How the results depend on the processing

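Of 923 refits of uncalled Hox differences, 0 gave a call and 68 changed sign. The Hox count in GoF against WT, 1 (Hoxb9), was 0 with a pseudocount of 0.1, with only the groups compared, with the replicate block and without LoF libraries 2 and 3, and 0 to 1 when each library was left out. With the filter applied again it was 0 without either GoF or either WT library, and the count in GoF against LoF was 0 without either GoF library, because Hoxb9 was then not tested. It was 0 throughout in LoF against WT. Replicate numbers did not pair the libraries (correlations of deviations between same-numbered libraries -0.007 to 0.030).

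Counts over all genes moved more. In GoF against WT 298 genes were called, 0 with only the groups compared, 15 with the replicate block, 127 without LoF libraries 2 and 3 (186 with the filter applied again), 39 to 332 when each library was left out, and, with the filter applied again, 48 and 79 without GoF library 1 or 2 and 48 and 84 without WT library 1 or 2. In LoF against WT 159 were called, 83 with a pseudocount of 0.1, 53 without a filter, 0 with only the groups compared, 54 without the trend, 1 with the replicate block, 0 without LoF libraries 2 and 3 (0 with the filter applied again), 0 to 135 when each library was left out, and, with the filter applied again, 42 without LoF library 2, 36 without WT library 1 and 3 without WT library 2. In GoF against LoF 1501 were called, 727 with the replicate block, 664 without LoF libraries 2 and 3 (848 with the filter applied again), 429 to 1369 when each library was left out, and 414 and 525 without GoF library 1 or 2 with the filter applied again. Higher and lower calls there were 769 and 732, and 983 and 658 under median ratio scaling. The causes were not tested. At an FPKM of at least 2 in place of 1, 8 Hox genes reached the filter in place of 13, and depth limits members near 1 FPKM.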
